A study of Mus musculus with 6 samples.

Results

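The type 1 programme of T cells is the set of genes through which a lymphocyte senses IL-12 and IL-18 and makes interferon gamma. It was followed here through 9 genes in dendritic epidermal T cells (DETC), the γδ T cells that live in mouse epidermis. The genes were Ifng, its T-box transcription factors Eomes and Tbx21, the transcription factors Stat4 and Runx3, and the receptor chains Il12rb1, Il12rb2, Il18r1 and Il18rap. A gene was included where the array annotation gave its symbol, and the brightest of its probe sets would have stood for it. Each of the 9 genes had 1 probe set, and they were 9 of 20300 genes tested. The question was which arms of the programme differed together with Ifng between DETC without and with a functional Ahr gene.

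Expression was measured on 6 Clariom S Mouse arrays. The first group, Ahr-ko, had 3 arrays of DETC from mice in which both copies of the aryl hydrocarbon receptor gene were knocked out. The second, Ahr-het, had 3 arrays of DETC from littermates with 1 knockout copy. Mice of the B6.129-Ahrtm1Bra/J line were bred as heterozygotes, so every mouse of both groups carried at least 1 knockout allele and there was no wild type. In the paper DETC of these arrays are called wildtype, which the sample labels do not give, and the groups here follow the labels. The knockout was in the whole body, not in DETC alone. Mice were female and male and 2 weeks old, and each array held RNA of 2 to 3 animals pooled together. Cells of back and belly skin that stained for the γδ TCR and its Vγ3 chain were sorted, with 90 to 98% purity. Of the live cells in the epidermis, DETC were 2 to 4% in Ahr-ko mice and 10 to 15% in Ahr-het mice, and 10 ng of RNA entered each reaction.

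In this programme IL-12 signals through a receptor of the chains IL-12Rβ1 and IL-12Rβ2, whose activated kinases phosphorylate STAT4. IL-18 signals through IL-18Rα and its accessory chain, which recruit MyD88 and act together with IL-12 on the Ifng gene. T-bet (encoded by Tbx21), Eomes and RUNX3 bind regulatory elements of Ifng and of cytotoxicity genes in T and NK cells. DETC are known as an epidermal source of IFN-γ after activation through their receptor. AHR is a ligand-activated transcription factor that binds, with its partner ARNT, DNA elements around the core GCGTG, and the epidermal pool of DETC is known to depend on it.

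Promoter windows were examined for this core and for sites of the factors of the programme, that is for STAT, T-box and RUNX proteins. Windows of 250 bases before to 50 after the transcription start came from RefSeq (GRCm38.p6). They were present for 8 of the 9 genes, in 12 windows, and Il12rb1 had none. The motifs were the AHR core GCGTG, the T-box site GGTGTG, the RUNX site TGTGGT and the STAT site TTCNNNGAA, which is its own reverse complement, and both strands were read. Of 32851 mouse promoters of this length, 32.4% held the AHR core, 19% the T-box site, 16.8% the RUNX site and 8.3% the STAT site. The windows of Ifng and Il12rb2 are printed because among the 9 genes they had the largest differences between the genotypes in either direction. Capitals mark every match to the 4 motifs, and each sequence runs 5′ to 3′ along its gene, Ifng on chr10:118440796-118441095 (plus strand) and Il12rb2 on chr6:67376139-67376438 (minus strand).
Ifng promoter: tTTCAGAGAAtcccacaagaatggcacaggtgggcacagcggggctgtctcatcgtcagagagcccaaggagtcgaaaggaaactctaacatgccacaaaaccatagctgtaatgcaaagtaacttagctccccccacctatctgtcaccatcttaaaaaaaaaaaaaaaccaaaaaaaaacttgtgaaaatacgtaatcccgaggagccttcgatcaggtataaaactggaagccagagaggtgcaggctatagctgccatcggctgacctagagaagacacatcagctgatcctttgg
Il12rb2 promoter: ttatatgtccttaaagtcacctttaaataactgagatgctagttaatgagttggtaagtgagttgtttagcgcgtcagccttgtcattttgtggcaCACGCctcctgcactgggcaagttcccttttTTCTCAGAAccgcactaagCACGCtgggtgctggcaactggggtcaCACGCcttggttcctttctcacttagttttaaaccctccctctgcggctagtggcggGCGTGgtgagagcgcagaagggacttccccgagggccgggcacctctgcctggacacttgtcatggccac

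The Ifng window held a single STAT site, at position -249 (first base of the match, counted from the transcription start), and none of the other motifs. The Il12rb2 window held 4 AHR cores, at positions -154, -104, -77 and -20, the last of them on the plus strand of the gene and the others on its opposite strand. Of all promoters 1.33% held 4 or more. It also held 1 STAT site, at -123. The windows of Eomes, Tbx21 and Stat4 held none of the 4 motifs, and no other window of the 8 genes held an AHR core. One of the Runx3 windows held 2 RUNX sites, and the Il18rap window held 1 at position 32. In the windows of Il18r1, a T-box site, a RUNX site and 2 STAT sites were found. A match is a run of letters, and binding was not measured.

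All values below are log2 levels of the RMA normalization made by the authors. No detection call comes with them. A background limit for each array was therefore taken from 1389 receptor genes of smell (olfactory and vomeronasal), as their 95th percentile. The limit lay between 7.55 and 7.63 on Ahr-ko arrays and between 7.46 and 7.57 on Ahr-het arrays, and 57.4 to 60.1% of the genes were above it. All 9 genes passed it on every Ahr-ko array, and 5 of the 9 on every Ahr-het array. Levels of different genes were not compared, since probes differ in brightness. The genotypes were tested with limma, p-values were adjusted by Benjamini-Hochberg over all 20300 genes, and a gene with an adjusted p under 0.05 is called higher or lower. Nothing in the labels says how the pools were formed beyond the number of mice, so the p-values measure the spread between these pools.

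Of the 9 genes, 5 were higher in Ahr-ko DETC (Ifng, Eomes, Tbx21, Stat4 and Il18rap) and 2 were lower (Il12rb1 and Il12rb2), while Runx3 and Il18r1 passed in neither direction. Over all genes, 1.58% were called higher and 1.57% lower. Without overlap between the groups, 5 of the 9 genes were higher and 3 lower in Ahr-ko, against 9.76% and 8.91% of all genes. The IL-12 receptor chains thus moved against Ifng and the T-box factors, and the IL-18 receptor moved with Ifng in 1 of its chains. The 9 genes were chosen with results of these arrays known, so their share says nothing on how common such a pattern is.

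**Figure D1:**
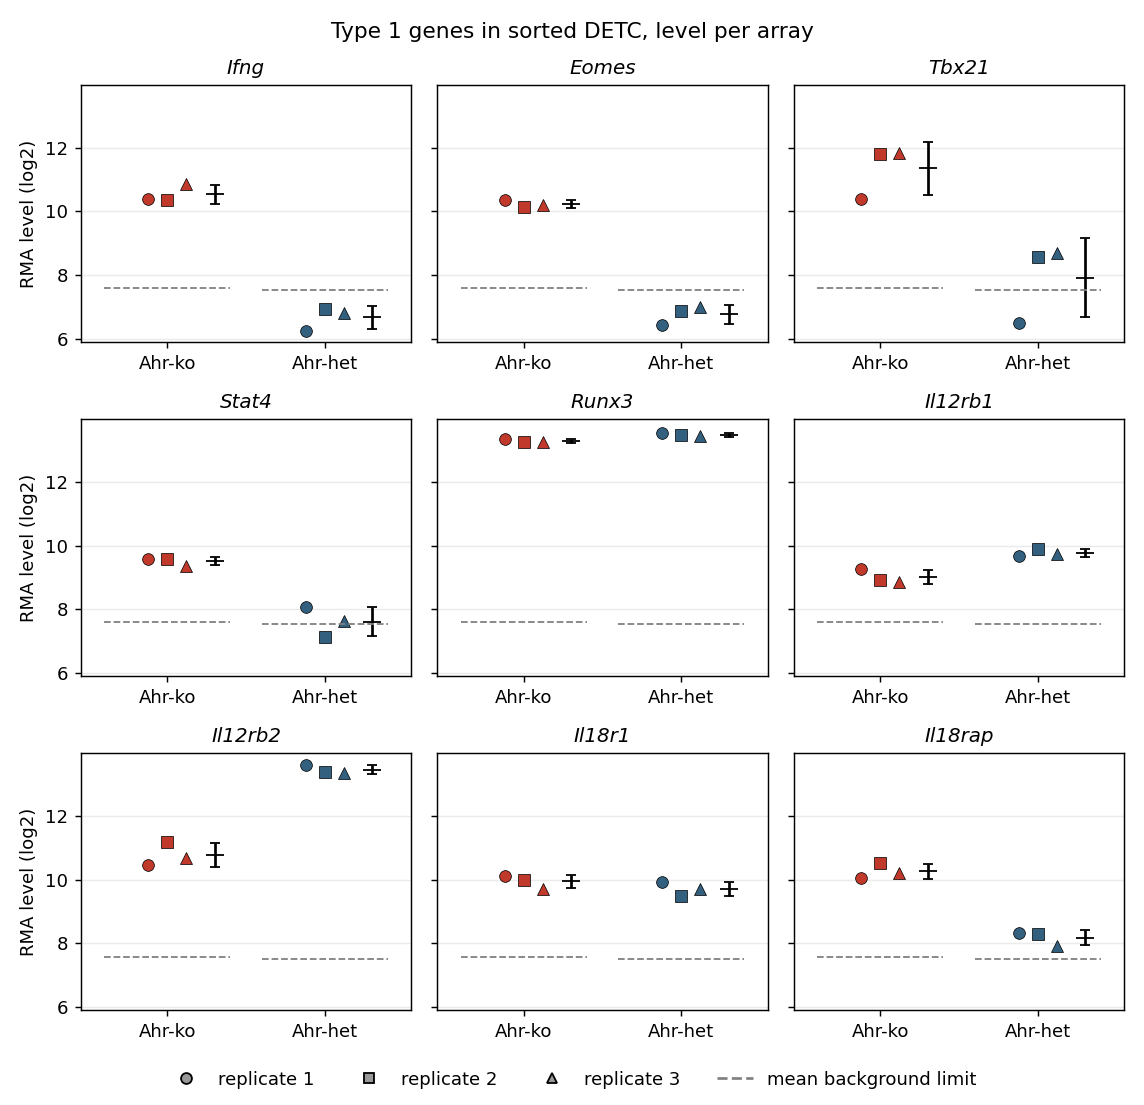
Log2 RMA level of each of the 9 genes on every array (y axis), Ahr-ko arrays in red on the left and Ahr-het arrays in blue on the right of each panel, with symbols for the replicate number, the group mean and SD in black (n = 3 arrays) and the mean background limit of the group as a dashed line. Ifng and Eomes lie above the limit on 3 of 3 Ahr-ko arrays and below it on every Ahr-het array, and Il12rb2 shows the opposite order with both groups above the limit.

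Ifng (gene ID 15978, chromosome 10), the gene for interferon gamma, had levels of 10.39, 10.34 and 10.87 on the Ahr-ko arrays, against 6.26, 6.94 and 6.82 on the Ahr-het arrays. Every Ahr-ko array was above the background limit and every Ahr-het array below it, with 3.41 between the lowest Ahr-ko and the highest Ahr-het array. Means were 10.54 +/- 0.29 in Ahr-ko and 6.67 +/- 0.36 in Ahr-het (SD, n = 3 arrays each). Since the Ahr-het level is only bounded, Ifng was at least 8.07-fold higher in Ahr-ko DETC, which sets the Ahr-ko mean against the limits of the Ahr-het arrays (limma, adjusted p = 3.79e-05). Among the 20300 genes Ifng was number 30 by p. A stricter limit, the 99th percentile in place of the 95th, gave a bound of at least 4.73-fold.

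Eomes (gene ID 13813, chromosome 9), a T-box factor of CD8 T cells and NK cells, had levels of 10.37, 10.13 and 10.19 in Ahr-ko, against 6.43, 6.89 and 6.995 in Ahr-het. As for Ifng, the groups were split by the background limit, on 3 of 3 arrays each. Means were 10.23 +/- 0.12 in Ahr-ko and 6.77 +/- 0.30 in Ahr-het (SD, n = 3), and Eomes was at least 6.53-fold higher in Ahr-ko (limma, adjusted p = 1.52e-05). The bound was at least 3.84-fold with the limit at the 99th percentile.

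Tbx21 (gene ID 57765, chromosome 11) encodes T-bet, the T-box factor that gives type 1 helper cells their identity. Its levels were 10.38, 11.81 and 11.84 in Ahr-ko, against 6.49, 8.57 and 8.69 in Ahr-het. The array of replicate number 1 was the lowest of its group in both genotypes, and the Ahr-het array of that number was the only one below the limit. Every Ahr-ko array was nevertheless above every Ahr-het array. The means of 11.35 +/- 0.84 in Ahr-ko and 7.92 +/- 1.23 in Ahr-het (SD, n = 3) differed by a log2 fold change of 3.43 (SE 0.61, 95% interval 2.03 to 4.83, limma adjusted p = 0.0216). Without Ahr-het replicate 1 the log2 fold change was 2.72. The call was lost without Ahr-ko replicate 2 (adjusted p = 0.0864 with limma), Ahr-ko replicate 3 (0.118) or Ahr-het replicate 2 (0.0513). Taken by equal replicate number, Ahr-ko exceeded Ahr-het by 3.89, 3.24 and 3.16, and with the number as a block the SE was 0.15 (limma, adjusted p = 2.56e-06). The labels do not say what a number stands for, and this pairing was taken from how the same arrays deviated together. The block fit therefore does not make up for the calls lost above.

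The sizes of the changes of Ifng, Eomes and Tbx21 were set against each other. Within an array, the level of Ifng minus that of Tbx21 was 0.43 higher in Ahr-ko than in Ahr-het (p = 0.5), and that of Eomes minus Tbx21 was 0.03 higher (p = 0.5, exact two-sided permutation tests over arrays, 0.5 for both after adjustment over 4 such pairs). With 3 arrays against 3 such a test cannot give a p under 0.1, and the Ahr-het side of Ifng and Eomes lies below the background limit. Left-out single arrays, which break the pairs of equal replicate number, moved Eomes minus Tbx21 between -0.52 and 0.57. Within those pairs the shift of Ifng minus Tbx21 was 0.24, 0.17 and 0.89, that of Eomes minus Tbx21 was 0.049, 0.0041 and 0.039, and that of Ifng minus Eomes was 0.19, 0.16 and 0.85. All were above 0, and an exact two-sided sign permutation over 3 pairs gave p = 0.25 for each, the smallest it allows.

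**Figure D2:**
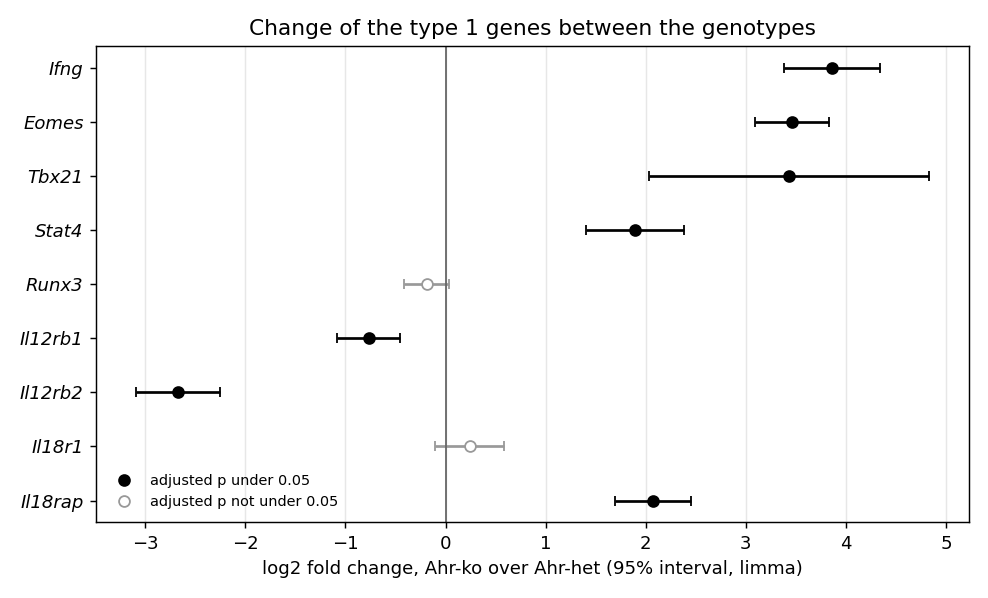
Change on the log2 scale, Ahr-ko over Ahr-het (x axis), with its 95% interval from limma for each of the 9 genes (n = 3 arrays per genotype), filled where the adjusted p was under 0.05 and open where it was not. The 5 filled points to the right of 0 run from 1.89 for Stat4 to 3.86 for Ifng, the 2 chains of the IL-12 receptor lie to the left, and the interval of Tbx21 is the widest. For Ifng and Eomes the fitted change includes Ahr-het levels below the background limit.

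Stat4 (gene ID 20849, chromosome 1), the signal transducer that IL-12 activates, had levels of 9.58, 9.57 and 9.37 in Ahr-ko, against 8.06, 7.14 and 7.65 in Ahr-het. The groups did not overlap, and the Ahr-het arrays lay near the background limit, 2 of them above it. Means were 9.51 +/- 0.12 in Ahr-ko and 7.62 +/- 0.46 in Ahr-het (SD, n = 3), a log2 fold change of 1.89 (SE 0.21, limma adjusted p = 0.00194). With the 99th percentile as the limit, none of the Ahr-het arrays passed it.

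Runx3 (gene ID 12399, chromosome 4), a Runt factor that acts with T-bet on Ifng in type 1 cells, had levels of 13.35, 13.25 and 13.26 in Ahr-ko, against 13.54, 13.45 and 13.42 in Ahr-het. The Ahr-ko arrays were all below the Ahr-het arrays, by a margin of 0.075 between the nearest of them. The log2 fold change of -0.19 (SE 0.098, 95% interval -0.41 to 0.037) did not pass the test (limma, adjusted p = 0.492). Its interval holds no change of the size seen for Ifng, Eomes, Tbx21 or Stat4.

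In the IL-12 receptor both chains were lower in Ahr-ko DETC. Il12rb2 (gene ID 16162, chromosome 6), the signalling chain that docks STAT4, had levels of 10.45, 11.17 and 10.69 in Ahr-ko, against 13.60, 13.39 and 13.35 in Ahr-het. All 6 arrays were above the background limit, and the groups were far apart. Means were 10.77 +/- 0.36 in Ahr-ko and 13.45 +/- 0.13 in Ahr-het (SD, n = 3), so Il12rb2 fell by 2.68 on the log2 scale (SE 0.18, limma adjusted p = 1.23e-04), which is 6.39-fold lower. By equal replicate number the differences were -3.15, -2.22 and -2.66. Its promoter window, printed above, held 4 AHR cores, and whether they have a part in this difference was not tested.

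Il12rb1 (gene ID 16161, chromosome 8), the chain that the IL-12 and IL-23 receptors share, had levels of 9.25, 8.91 and 8.85 in Ahr-ko, against 9.68, 9.90 and 9.72 in Ahr-het. The groups did not overlap, but the difference was small. Means of 9.003 +/- 0.22 in Ahr-ko and 9.77 +/- 0.12 in Ahr-het (SD, n = 3) gave a log2 fold change of -0.77 (SE 0.14, 95% interval -1.08 to -0.45, limma adjusted p = 0.0218). The call was lost without Ahr-ko replicate 2 (limma adjusted p = 0.0836), Ahr-ko replicate 3 (0.114), Ahr-het replicate 2 (0.115) or Ahr-het replicate 3 (0.0833).

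The change of Il12rb2 was compared with that of Il12rb1. Within an array, Il12rb2 minus Il12rb1 was 1.91 lower in Ahr-ko than in Ahr-het (exact two-sided permutation test, p = 0.1, adjusted p = 0.2), and every Ahr-ko array was below every Ahr-het array. This p is the smallest that 3 arrays against 3 allow. Left-out arrays moved the difference between -2.16 and -1.63.

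Of the chains of the IL-18 receptor, 1 was called higher in Ahr-ko DETC and the other was not called. Il18rap (gene ID 16174, chromosome 1), the accessory chain without which the receptor does not signal, had levels of 10.04, 10.52 and 10.21 in Ahr-ko, against 8.34, 8.30 and 7.91 in Ahr-het. The groups did not overlap and all arrays passed the background limit. Means were 10.26 +/- 0.24 in Ahr-ko and 8.18 +/- 0.24 in Ahr-het (SD, n = 3), so Il18rap was 4.21-fold higher in Ahr-ko (log2 fold change 2.07, SE 0.17, limma adjusted p = 3.17e-04). With the limit at the 99th percentile 1 of 3 Ahr-het arrays passed.

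Il18r1 (gene ID 16182, chromosome 1), the chain that binds IL-18, had levels of 10.12, 10.00 and 9.72 in Ahr-ko, against 9.91, 9.49 and 9.71 in Ahr-het. The groups overlapped. The log2 fold change of 0.24 (SE 0.15, 95% interval -0.11 to 0.59) did not pass the test (limma, adjusted p = 0.587). Il18rap minus Il18r1 within an array was 1.83 higher in Ahr-ko, with no overlap between the groups (exact two-sided permutation test, p = 0.1, the smallest that the design allows, adjusted p = 0.2). Without single arrays this difference stayed between 1.69 and 2.03.

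**Figure D3:**
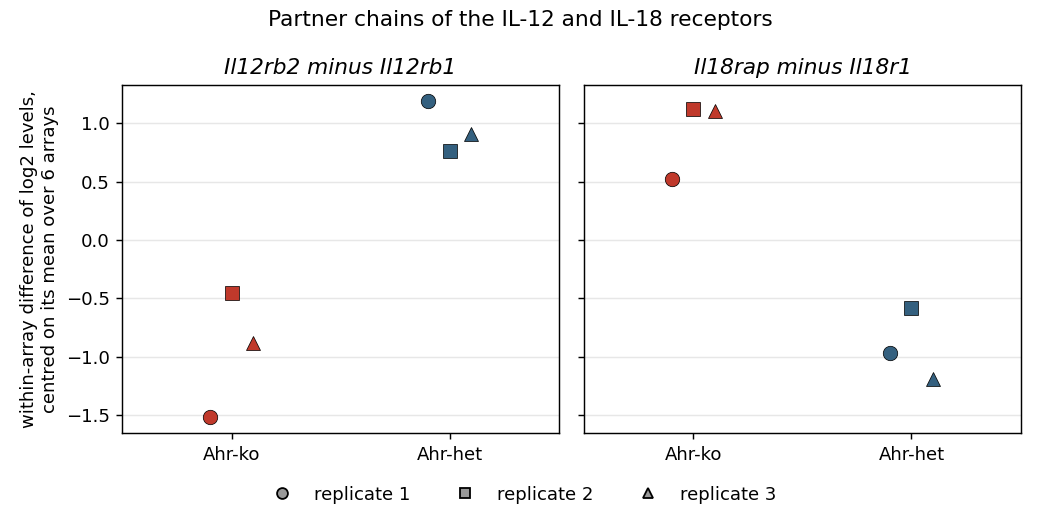
Log2 level of one receptor chain minus that of its partner on the same array, centred on its mean over the 6 arrays (y axis), for the IL-12 receptor (left panel) and the IL-18 receptor (right panel), with Ahr-ko arrays in red left of Ahr-het arrays in blue and symbols for the replicate number. Only the shift between genotypes can be read, -1.91 for Il12rb2 minus Il12rb1 and 1.83 for Il18rap minus Il18r1.

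Profiles over the 6 arrays were also set against that of Ifng. Each profile was centred on its own mean, and the root mean square difference from Ifng was 0.29 for Eomes, 0.71 for Tbx21, 0.97 for Il18rap and 1.11 for Stat4 on the log2 scale. It was 1.86 for Il18r1, 2.05 for Runx3, 2.33 for Il12rb1 and 3.29 for Il12rb2. The Ahr-het levels of Ifng and Eomes lie below the background limit, so how close these profiles are was not measured there. Among 11148 genes above the background limit on all Ahr-ko arrays, the 5 nearest to Ifng were Slamf7 (0.24), a receptor of activated and cytotoxic lymphocytes, Nt5e (0.32), which encodes the ectonucleotidase CD73, the integrin gene Itgad (0.35), Txk (0.36), a Tec family kinase of T cells, and Pik3r6 (0.36), a regulatory subunit of PI3 kinase gamma. The 5 nearest to Eomes were Ms4a4b (0.19), Slamf7 (0.23), the sorting receptor gene Sorl1 (0.24), Itgad (0.27) and Nt5e (0.30). Of these, Itgad, Pik3r6, Ms4a4b and Sorl1 were below the limit on all Ahr-het arrays. The candidates had to pass the limit in Ahr-ko, where Ifng and Eomes are high, so the ranks describe a like difference between the 2 genotypes and nothing beyond it.

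Around the receptors, none of 14 genes for the ligands, kinases and adaptors of IL-12 and IL-18 signalling was called in either direction by limma, and their median log2 fold change was -0.0088, against 0.0038 over all genes. At an unadjusted p under 0.05 the count was also 0 of 14, while 1358 genes were higher and 1327 lower over the whole array. The 2 with the highest mean level were Irak2, a kinase of the IL-18 pathway, with a log2 fold change of -0.23 (SE 0.25), and Tyk2, a kinase bound to the IL-12 receptor, with -0.027 (SE 0.13). Neither passed the test. Of the 14 genes, 9 were above the background limit on all Ahr-ko arrays and 9 on all Ahr-het arrays.

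Among 21 other transcription factors of the type 1 programme, 1 was higher and 1 lower, with a median log2 fold change of 0.035. Bhlhe40, a factor that supports IFN-γ production in T cells, had a log2 fold change of 1.41 (SE 0.25, limma adjusted p = 0.0199), a call lost without Ahr-ko replicate 2, Ahr-ko replicate 3 or Ahr-het replicate 3. Runx2, a Runt factor as Runx3 is, had -0.52 (SE 0.11, adjusted p = 0.041 with limma), a call that was lost whichever single array was left out.

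Of 14 genes known to be activated by T-bet or Eomes in T and NK cells, 4 were higher in Ahr-ko and 2 were lower, against 1.58% and 1.57% of all genes. The median log2 fold change was 0.12, and the list was chosen with earlier results of these data known. The genes of this list thus went both ways while both T-box factors were higher. Ccl3, a chemokine gene, had levels of 9.08, 9.19 and 9.67 in Ahr-ko, against 7.09, 7.12 and 7.37 in Ahr-het. Ccl3 and the related chemokine gene Ccl4 were at least 3.45-fold and at least 2.00-fold higher in Ahr-ko, with Ahr-het levels below the background limit on all arrays. Both bounds hold only for the 95th percentile as the limit. Ccl4 had 8.67, 8.16 and 8.74 in Ahr-ko, and replicate 2 was below the 99th percentile of its array (8.44). All of these levels were below the limits from antigenomic control probe sets on the same arrays (8.72, 8.86 and 8.88). Fasl, the death ligand of cytotoxic lymphocytes, was also higher. Cxcr6, a chemokine receptor of skin-resident T cells, had levels of 7.67, 7.90 and 8.04 in Ahr-ko, against 9.08, 9.53 and 9.42 in Ahr-het, and fell by 1.47 on the log2 scale (SE 0.15). The other lower gene was Prf1, which encodes the pore-forming protein perforin. These calls held whichever single array was left out.

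Of 15 other T cell cytokine genes, none was called higher in Ahr-ko by limma (0 also at an unadjusted p under 0.05), and 1 was lower, with a median log2 fold change of -0.091. Ifng was thus called higher and none of these 15 was. Over all genes 1.58% were called higher, so a count of 0 of 15 is near that share. Only 7 of the 15 were above the background limit on all Ahr-ko arrays, and 9 on all Ahr-het arrays. The lower one was Il2, the T cell growth factor, which was below the background limit on all Ahr-ko arrays and above it on all Ahr-het arrays, and was at least 1.32-fold lower (limma adjusted p = 0.028). That call was lost in 4 of the 6 fits with an array left out. With the 99th percentile as the limit, Il2 was below it on every array of both groups, so the bound holds only for the 95th. Among 13 genes of the type 2 and type 17 programmes, 1 was higher, namely Ccr8, a chemokine receptor of skin-homing T cells, with a log2 fold change of 2.09 (SE 0.22, limma adjusted p = 0.00146). The median of that list was -0.0089.

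**Figure D4:**
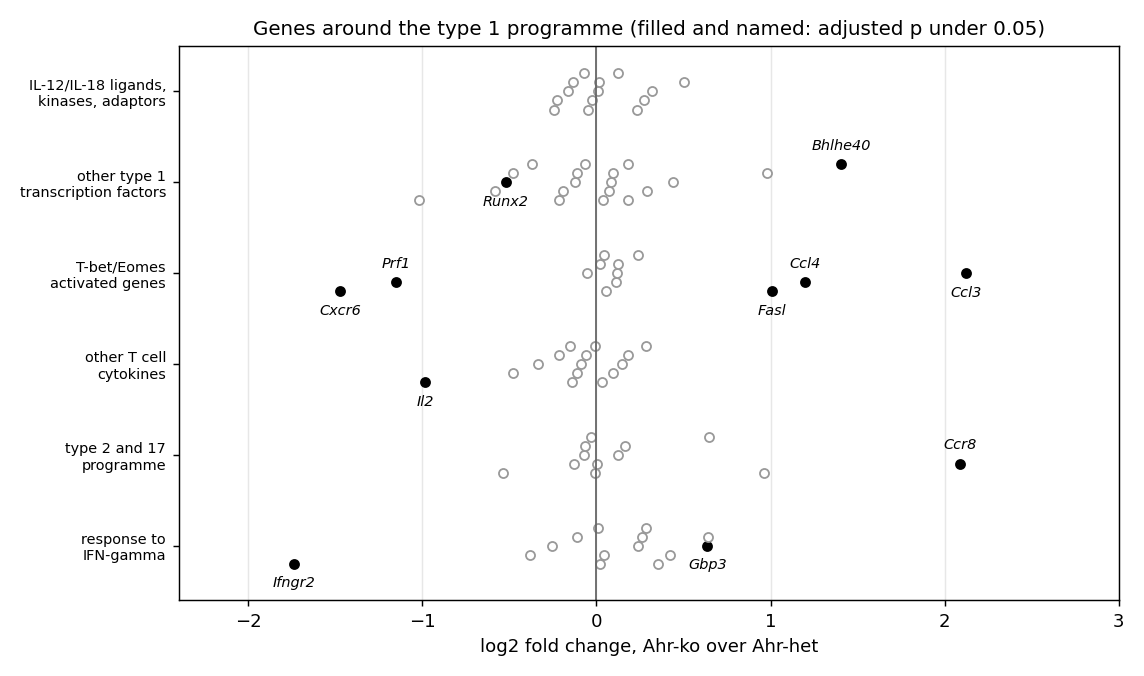
Change on the log2 scale, Ahr-ko over Ahr-het (x axis), for the genes of 6 lists around the type 1 programme (rows), 1 point per gene reported here, filled and named where the limma adjusted p was under 0.05 and open where it was not, with a vertical offset only to separate points. Most genes lie near 0, and the genes activated by T-bet or Eomes hold filled points on the right (Ccl3, Ccl4 and Fasl) and on the left (Cxcr6 and Prf1). The points of Ccl3 and Ccl4 include Ahr-het levels below the background limit, that of Il2 Ahr-ko levels below it, and Gbp3 lies below it in both groups.

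On the receiving side, 15 genes of the response to IFN-γ were tested. Of these 1 was higher and 1 lower, against 1.58% and 1.57% of all genes. At an unadjusted p under 0.05, 5 were higher and 1 lower, against 1358 and 1327 of all 20300 genes. Among the 5, but not called, were Igtp (log2 fold change 0.64, SE 0.14), Ifngr1 (0.42, SE 0.13) and Irgm1 (0.35, SE 0.15). The list had a median log2 fold change of 0.24, against 0.0038 over all genes. Ifngr2, the signalling chain of the IFN-γ receptor, had levels of 9.19, 9.20 and 9.14 in Ahr-ko, against 11.10, 10.85 and 10.79 in Ahr-het. The groups were far apart, and Ifngr2 fell by 1.74 on the log2 scale (SE 0.11, limma adjusted p = 1.04e-04). The gene called higher, Gbp3, encodes an interferon-induced GTPase and was below the background limit on all 6 arrays, so no fold is given. Of the 8 tested neighbours of the Ifng, Stat4 and IL-18 receptor genes, limma called none in either direction (1 higher and 0 lower at an unadjusted p under 0.05, median log2 fold change -0.072). Only 2 of the 8 were above the background limit on all Ahr-ko arrays, and 3 on all Ahr-het arrays. For most of these neighbours the lack of a call therefore says little. Mdm1, near Ifng, had a log2 fold change of -0.014 (SE 0.11).

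The genotype was checked on the arrays through Ahr and its target genes. Ahr had levels of 10.00, 10.40 and 10.39 in Ahr-ko, against 10.77, 10.62 and 10.72 in Ahr-het, a log2 fold change of -0.44 that did not pass the test (limma adjusted p = 0.177). Where the probes lie relative to the deleted part is not given in the sources used here, so this level does not check the labels. Of 10 genes listed as AHR targets, Ahr included, 5 were above the background limit on all Ahr-ko arrays and 6 on all Ahr-het arrays. At an unadjusted p under 0.05, 0 of the 10 were higher and 5 lower, against 1358 and 1327 of all 20300 genes. The 5 include Ahr itself, and Cyp1a2, which was below the background limit on all 6 arrays. After adjustment none of the 10 was called higher and 2 were called lower. These were Ahrr, the repressor that AHR induces, at 8.83, 8.82 and 8.99 in Ahr-ko, against 10.57, 10.33 and 10.09 in Ahr-het (log2 fold change -1.45, SE 0.14), and Kit, the receptor of stem cell factor, with -1.22 (SE 0.14).

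Markers of DETC and T cells were above the background limit in both genotypes, 12 of 12 in Ahr-ko and 11 of 12 in Ahr-het. In sorted cells, a gene that is higher can reflect more RNA per cell or more cells that use it, and these arrays cannot tell the cases apart. Eomes and Ifng are also genes of NK cells and CD8 T cells, whose markers were therefore read beside them. Of 6 markers of NK cells and ILC, 3 were higher in Ahr-ko (Ncr1, Itga2 and Klri2) and none lower (3 and 2 at an unadjusted p under 0.05), and their mean level ran from 7.85 to 8.40 on Ahr-ko arrays and from 7.68 to 7.90 on Ahr-het arrays. Ncr1, a receptor gene of this list, had levels of 8.99, 7.59 and 7.83 in Ahr-ko, against 6.63, 6.42 and 6.59 in Ahr-het, with 2 Ahr-ko arrays and none of the Ahr-het arrays above the limit. Klrb1c, which encodes the NK1.1 receptor, was above the limit on all arrays of both genotypes and was not called. Its log2 fold change was -0.83 (SE 0.32), and that of Klri1, below the limit on all Ahr-ko arrays, was -0.59 (SE 0.18). Klrb1c and Klri1 were the 2 markers lower at an unadjusted p under 0.05, so this list went both ways. The calls of Ncr1, Itga2 and Klri2 were lost in 4, 5 and 5 of the 6 fits with an array left out, all 3 of them without Ahr-ko replicate 3 or without Ahr-het replicate 2.

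Of 7 markers of αβ T cells, 3 were higher (Cd6, Cd8a and Cd8b1) and 1 was lower (Themis), against 1.58% and 1.57% of all genes. At an unadjusted p under 0.05, 3 were higher and 2 lower, the second being Cd5 with a log2 fold change of -0.35 (SE 0.14). The median log2 fold change was -0.0023, so this list also went both ways. Its mean level was 8.94 to 9.09 on Ahr-ko arrays and 8.47 to 8.66 on Ahr-het arrays. All 4 calls were lost without Ahr-ko replicate 3 or without Ahr-het replicate 2, and those of Cd8b1 and Themis in 5 of the 6 fits with an array left out. For γδ T cells of the IL-17 type, 2 of 10 markers were higher, Ccr2 (log2 fold change 4.25) and Cd163l1 (1.89), and none was lower. At an unadjusted p under 0.05, 2 were higher and 1 lower, which was Il17f at -0.33 (SE 0.14). The median log2 fold change was -0.030, so this list did not move as a whole. Its mean level, which includes Ccr2 and Cd163l1, was 8.16 to 8.19 in Ahr-ko and 7.48 to 7.75 in Ahr-het. The part of NK, αβ or IL-17 type γδ T cells in the levels of the 9 genes was not tested. Keratinocyte markers ran from 8.61 to 8.88 on Ahr-ko arrays and from 8.74 to 8.95 on Ahr-het arrays, with 1 of 14 lower (Dsp). With their mean level as a covariate the 9 genes gave the same 5 higher and 2 lower calls, and the log2 fold change of Tbx21 was 4.40. Markers of Langerhans and myeloid cells (10 genes) and of mast cells (6 genes) were called in neither direction by limma. At an unadjusted p under 0.05, 1 of the Langerhans and myeloid markers was lower and 0 of the mast cell markers differed.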

How the data were processed

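The authors normalized the 6 arrays by RMA and deposited log2 levels per probe set. RMA here carries no version, and limma 3.38.3 stands in the submitters' processing notes. Their other deposited table, with log2 fold changes and p-values of the genotype comparison, served only to pair probe sets with gene symbols and IDs. Of 29129 probe sets 20435 named a gene, and 8694 controls and unnamed probe sets were left out. The brightest probe set stood for each of 86 genes with several, which left 20300 genes, of which 20199 were found in RefSeq (GRCm38.p6). The comparison of 3 arrays against 3 used limma 3.58.1 (functions lmFit and eBayes, no covariates) in R 4.3.3. The fit was tested on simulated data.

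For a gene below the background limit on all arrays of a group, the bound is the brighter group's mean over the mean of the limits on those arrays. The 9 genes and all lists were chosen with earlier results of these data known. Named in the text are the 9 genes, up to 4 called genes of each list by size of change (or the 2 brightest where none was called) and the 5 nearest profiles to Ifng and to Eomes. Fasl, Prf1, Ahr, Igtp, Ifngr1, Irgm1, Cyp1a2 and the markers of cell types were named outside this rule, after their values were seen. Some genes that entered the fit and the counts are not reported here.

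Equal replicate numbers were taken to pair arrays only in the block fit and in the comparisons by number. The reason was that deviations from the group means correlated by 0.572, 0.369 and 0.207 for numbers 1, 2 and 3. The main fit and the list counts did not use this pairing, and the list counts were not redone with it. The labels do not say what a number stands for, and unequal numbers 2 and 3 also correlated (0.236 and 0.336). Alternatives were the replicate number as a block, single arrays and both number 1 arrays left out, further normalization, filters, other choices of probe sets, array weights, an intensity trend, a keratinocyte covariate and other background limits.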

Additional observations from a re-analysis of the deposited data

How the results depend on the processing

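Ifng, Eomes, Stat4, Il12rb2 and Il18rap were called in the same direction in 16 of 16 alternative fits. Tbx21 and Il12rb1 were called in 12 of 16, keeping their direction in all, and Runx3 and Il18r1 in 0 of 16. Without single arrays 4 to 5 of the 9 genes were higher and 1 to 2 lower, and Tbx21 was also lost when all probe sets were tested (limma adjusted p = 0.0553). The number of all genes called, 638, depended more on the fit. It was 1538 with the replicate number as a block (747 higher and 791 lower), which pairs the arrays, 342 to 644 without single arrays, 1147 without both number 1 arrays, 1716 with array weights and 1398 with the keratinocyte covariate. The block changed no call of the 9 genes. The shift of Eomes minus Tbx21 ran from -0.52 to 0.57 without single arrays. Comparing changes within pairs of equal number was an alternative added after seeing the data. In this balanced design it cannot alter the mean shifts (0.43 for Ifng minus Tbx21), so their equality is no check. The limit from antigenomic control probe sets was passed on every array by 8 of the 9 genes in Ahr-ko and 4 in Ahr-het. The causes of these shifts were not tested. A fold for Ifng and Eomes beyond their bounds is limited by signal over background in Ahr-het.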
